A study of Rattus norvegicus with 399 samples.

Results

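Hearts of unexposed rats were set against kidney, liver (left lobe), lung and ovary of the same animals. The libraries are those of the 0 ppm groups in a study of 1,2-dichlorobenzene (1,2-DCB) and 1,4-dichlorobenzene (1,4-DCB), in which each compound had its own 10 control rats, female Sprague-Dawley animals of 9 weeks sampled on study day 5. Of 100 control libraries, those that the submitters marked for a quality issue were left out, and so were the hearts of 1,4-DCB controls F1 and F7, a choice that rests on the liver transcripts measured in them. This left 18 hearts, 10 from 1,2-DCB and 8 from 1,4-DCB controls, among 95 control libraries, of 399 libraries in the series. The other tissues gave 19 kidney, 20 liver, 18 lung and 20 ovary libraries. Heart was sampled as a piece of about 5 mm3, and the chamber is not stated.

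Transcripts were measured by TempO-Seq with the Rat S1500+ panel, a chosen set of genes, in which paired detector oligonucleotides are ligated on their transcript, amplified and counted. Levels are counts per 1000000 (CPM) with library totals scaled by the TMM method, and are comparable between libraries but not between probes. A change is the log2 fold difference ± SE between heart and the mean of the other tissues (the average of their log2 levels, with equal weight), from the quasi-likelihood test of edgeR with the rat as a block. P-values were adjusted by Benjamini-Hochberg over all 2446 tested probes. A probe was called higher or lower at an adjusted p below 0.05 and a change above 2-fold.

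Cardiomyocytes, the striated muscle cells of the heart, contract without rest. Their sarcomeres slide myosin along actin when the sarcoplasmic reticulum releases calcium, and their dense mitochondria make ATP chiefly from fatty acids, with glucose, lactate and ketone bodies as further fuels. Creatine kinase passes the energy of ATP to the myofibrils. Endothelial cells, fibroblasts, pericytes and macrophages are the main other cells of the organ.

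Control hearts were higher than the mean of the other tissues in 413 probes (16.9%) and lower in 658 (26.9%), and the median change over all tested probes was -0.23. A narrower set of 150 probes (6.13%) was more than 2-fold higher in heart than in each of the 4 other tissues, and 4.99% of the tested probes were more than 2-fold lower than in each. Every heart lay above all libraries of the other tissues in 6.34% of tested probes and below all of them in 2.94%. Among the 150 probes above each tissue this separation held for 120 probes, and among those below each tissue for 49. The nearest tissue was kidney for 57 of the 150 probes, lung for 41, ovary for 38 and liver for 14. The gap to it was above 8-fold for 53 and between 2- and 4-fold for 72. At the edge of the rule, Aspn, Cdkn1a and Sh3bp5 had smallest gaps of 1.00, 1.01 and 1.03 on the log2 scale and were included, while Idh2, Ppp3cb and Hadh, each at 0.99, were not. In these bulk samples, fewer cells of a type and less RNA per cell cannot be told apart.

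**Figure D1:**
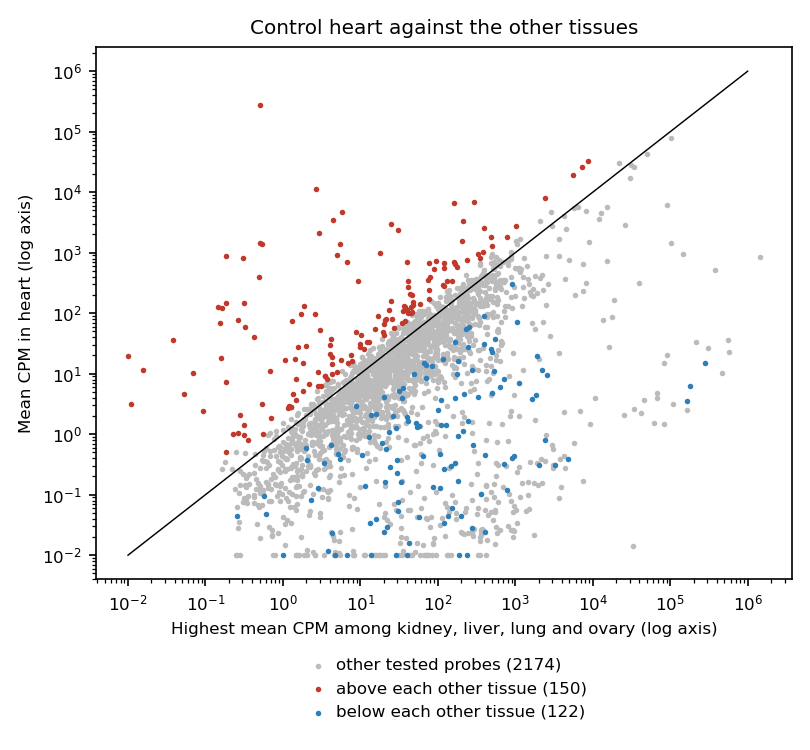
Mean CPM of each tested probe in 18 control hearts (vertical, log axis) against its highest mean among kidney, liver, lung and ovary (horizontal, log axis), with means under the lowest plotted level drawn at that level. The 150 probes above each other tissue lie above the line of equality, with Myl2, at 280713 CPM in heart, farthest from it.

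Median totals were 12.1 M (1 M is 1000000) counts in heart (8.55 to 16.5), 25.5 in kidney, 44.3 in liver, 21.9 in lung and 20.5 in ovary (1.2 to 38.4). These include counts of attenuated (deliberately diluted) probes after scaling up. With counts divided by each probe's step, the whole number of which they are multiples, the tissues were closer. Medians were then 7.42 M in heart, 7.24 in kidney, 6.84 in liver, 6.51 in lung and 9.02 in ovary. TMM factors were 0.138 to 0.181 in liver and 1.08 to 1.51 in heart. With library totals only, the median change was 0.05 and 49% of the called probes were higher, against 38.6% with TMM.

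A few transcripts made up most of a heart library. Myl2, the regulatory light chain of ventricular myosin, took 33.4% ± 2.07 of the counts (SD, n = 18), and the 10 largest probes took 69.1% ± 1.53. Next were the chaperone Hspa8 with 9.41% ± 0.873, the ribosomal protein Rpl35 with 5.05% ± 0.373, the ATP synthase subunit Atp5c1 with 3.91% ± 0.461 and the thiolase Acaa2 with 3.53% ± 0.750. Counts of attenuated probes had been scaled back up, so these are shares of adjusted counts and not of reads. Levels are not comparable between probes, so they are not shares of transcripts either. Hspa8 and Rpl35 were abundant in every tissue and did not pass, with changes of 0.02 and -0.02 whose signs changed under other settings, given with the processing.

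The stretch before the start of transcription is printed for 5 of the genes highest in heart, chosen after their values were seen, because muscle transcription factors are known to act there and these genes were high together. Each is the 250 bases before the start in RefSeq's GRCr8 assembly, 5′ to 3′ on the gene's strand: Acta1 at chr19:68784195-68784444 (minus strand), Myl3 at chr8:119616844-119617093 (plus strand), Myoz2 at chr2:213852779-213853028 (minus strand), Ckm at chr1:88189211-88189460 (plus strand) and Pgam2 at chr14:84897875-84898124 (minus strand).
Acta1: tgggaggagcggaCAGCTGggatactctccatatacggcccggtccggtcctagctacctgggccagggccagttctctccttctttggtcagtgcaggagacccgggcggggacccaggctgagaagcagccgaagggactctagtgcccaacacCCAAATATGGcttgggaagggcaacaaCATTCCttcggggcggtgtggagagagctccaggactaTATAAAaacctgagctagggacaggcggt
Myl3: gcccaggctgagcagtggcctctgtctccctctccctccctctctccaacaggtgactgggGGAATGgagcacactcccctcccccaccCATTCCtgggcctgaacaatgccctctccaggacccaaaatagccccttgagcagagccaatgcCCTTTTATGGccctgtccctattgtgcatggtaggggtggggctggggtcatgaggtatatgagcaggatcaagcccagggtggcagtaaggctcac
Myoz2: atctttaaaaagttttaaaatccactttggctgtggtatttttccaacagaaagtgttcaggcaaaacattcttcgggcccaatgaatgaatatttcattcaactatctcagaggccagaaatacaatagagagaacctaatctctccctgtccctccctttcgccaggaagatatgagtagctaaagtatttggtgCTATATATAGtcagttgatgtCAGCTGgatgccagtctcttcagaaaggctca
Ckm: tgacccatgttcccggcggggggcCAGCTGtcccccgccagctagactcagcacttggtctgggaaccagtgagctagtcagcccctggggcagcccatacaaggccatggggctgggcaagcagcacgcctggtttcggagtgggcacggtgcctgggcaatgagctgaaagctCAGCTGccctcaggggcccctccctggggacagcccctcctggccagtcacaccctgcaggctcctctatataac
Pgam2: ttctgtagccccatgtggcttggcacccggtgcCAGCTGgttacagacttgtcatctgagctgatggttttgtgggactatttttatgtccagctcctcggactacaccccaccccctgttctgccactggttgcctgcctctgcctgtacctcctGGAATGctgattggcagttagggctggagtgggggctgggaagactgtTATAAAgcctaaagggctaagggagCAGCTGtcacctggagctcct
Capitals mark matches on either strand to the MEF2 site, the CArG box of the serum response factor SRF and the DR1 repeat, each searched by its usual consensus, and to 6 short motifs. The E-box of muscle regulators was searched as CAGCTG. The TEAD motif was searched as CATTCC, the GATA motif as AGATAA and the TATA box as TATAAA. The ERR motif was searched as AAGGTCA and the NKX2 motif as TNAAGTG. Matches to the MEF2 site, the CArG box and the TATA box can overlap. The Acta1 window holds a CArG box, an E-box, a TEAD motif and a TATA box, and that of Myl3 a CArG box and TEAD motifs on both strands. Myoz2 holds a MEF2 site and an E-box, Ckm holds E-boxes at separate places, and Pgam2 holds E-boxes, a TATA box and a TEAD motif on the other strand. Not all genes of this group hold such letters: the windows of Actc1 and Hrc, also among the 20 largest rises, hold no match. In the same 250 bases of all 27457 promoters of the table, a CArG box is found in 1.50%, a MEF2 site in 3.07%, the E-box in 11.9%, the TEAD motif in 11.8%, the TATA box in 13.1%, the GATA motif in 10.0%, the NKX2 motif in 9.84%, the ERR motif in 3.77% and DR1 in 0.0546%. A match describes letters and shows no binding. Of the genes above each other tissue, 76.2% were matched to a promoter, fewer than the 80% set as a minimum, so a share over the set would be void and is not given.

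Sarcomere and Z-disc genes stood far above the other tissues: 18 of 21 tested probes were higher and 0 lower, and 17 were above each other tissue. Their median change was 8.71, or 9.18 from the edgeR fit, against -0.23 for all tested probes from that fit. The 8.71 and the later list medians come from CPM pooled over each tissue, with fewer than 3 counts set to 3. Myl2 ran from 196648 to 325615 CPM (median 282012) among hearts and reached at most 5.99 CPM in any other library. Its change was 19.96 ± 0.39, adjusted p = 2.94e-58. The 3 members that did not pass were Neb, Dag1 and Tpm2, with changes of -0.52, -0.11 and 0.15.

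The second ventricular light chain, Myl3, ran from 1041 to 1623 CPM (median 1386) among hearts and reached at most 1.24 CPM elsewhere. No liver library held a count, so heart was at least 67700-fold higher than liver (against 3 counts over the 20 libraries), and it stood 11.46 ± 0.28 on the log2 scale over kidney, its nearest tissue (adjusted p = 2.2e-41). Actc1, cardiac alpha-actin, ran from 2624 to 4797 CPM (median 3449) in heart and from 1.63 to 26.96 CPM in lung, with no count in kidney or liver. Heart exceeded kidney at least 734000-fold and stood 10.11 ± 0.28 on the log2 scale over lung, its nearest tissue (adjusted p = 1.79e-29).

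Acta1, skeletal alpha-actin, was also high but more variable, from 298 to 1478 CPM (median 886) among hearts, with a change of 11.14 ± 0.23, adjusted p = 5.1e-56. Of the myosin heavy chains, Myh7, the slow beta form, ran from 549 to 3647 CPM (median 1250.4), and Myh6, the fast alpha form, from 93.9 to 156.4 CPM (median 117.6). Myh7 thus spread more widely among hearts than Myh6. Heart stood 11.54 ± 0.37 on the log2 scale over ovary, its nearest tissue (adjusted p = 8.37e-36) for Myh7 and 9.53 ± 0.45 on the log2 scale over ovary, its nearest tissue (adjusted p = 1.18e-21) for Myh6.

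Proteins of the Z-disc followed. Csrp3, a LIM protein of the Z-disc, ran from 1427 to 2756 CPM (median 2016) in heart against at most 32.1 elsewhere (14.60 ± 0.34, adjusted p = 6.25e-53). Myoz2, which binds calcineurin there, had 802 ± 97.97 CPM in heart, no count in liver or ovary, and stood 12.42 ± 0.53 on the log2 scale over lung, its nearest tissue (adjusted p = 3.09e-22). Nrap, a scaffold of myofibril assembly, had 148.8 ± 25.4 CPM (11.74 ± 0.16, adjusted p = 7.44e-69), and Tcap, which caps titin, had 67.9 ± 20.4 CPM (11.46 ± 0.22, adjusted p = 2.38e-58). In these 4 genes, as in Myl2, Myl3, Actc1 and Acta1, the lowest heart was above the highest library of any other tissue.

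**Figure D2:**
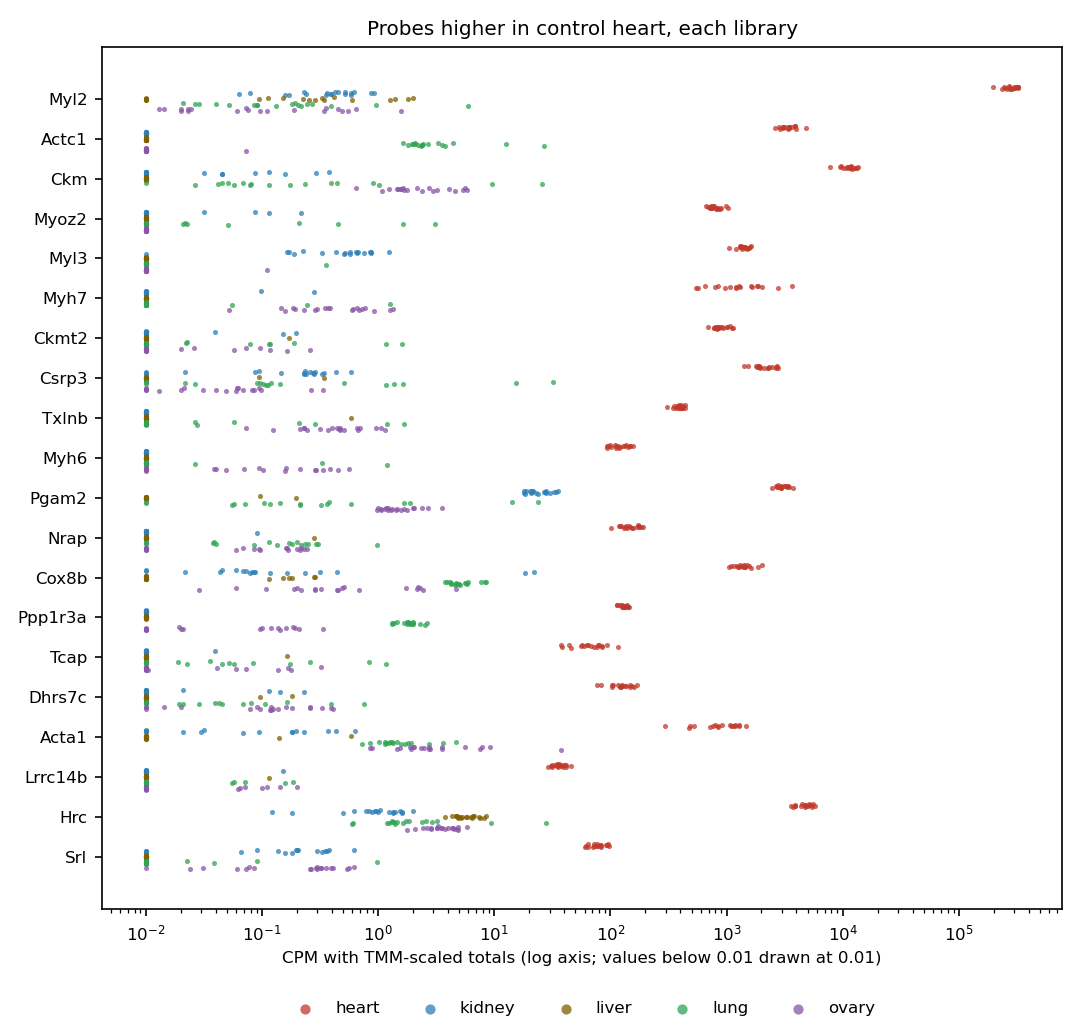
CPM in each library (horizontal, log axis) of the 20 genes with the largest change among probes above each other tissue and at 20 CPM or more in heart, by tissue. In all 20 the hearts lie to the right of every other library.

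In the calcium handling list, 5 of 8 tested probes (62.5%) were higher and 1 (12.5%) lower, against 16.9% and 26.9% of all tested probes. The median change was 1.70. Hrc, the histidine-rich calcium-binding protein of the sarcoplasmic reticulum, ran from 3588 to 5835 CPM (median 4753) in heart and reached at most 27.96 CPM elsewhere (10.71 ± 0.18, adjusted p = 1.42e-61). Casq1, a calsequestrin that stores calcium, had 199 ± 62.3 CPM in heart and 45.997 in kidney (5.93 ± 0.11, adjusted p = 1.15e-60); 1,4-DCB heart F8 was the highest, at 431. Prkaca, the catalytic subunit of protein kinase A, was 1.97 higher, and the inositol trisphosphate receptor Itpr1 was lower, at -1.02. Outside this list, Srl, sarcalumenin of the same membrane, had 78.03 ± 11.6 CPM in heart and no count in liver, and the dehydrogenase Dhrs7c had 124.9 ± 24.97 CPM (11.16 ± 0.20, adjusted p = 6.35e-61).

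Among channels and junctions, 8 of 10 tested probes were higher and 0 lower, with a median of 2.39. Gja1, the connexin of ventricular gap junctions, ran from 36.5 to 114.1 CPM (median 78.9) in heart and from 11.1 to 36.5 in ovary (4.36 ± 0.12, adjusted p = 3.51e-48). The lowest heart was that of 1,2-DCB rat F2 and lay at the level of the highest ovary. Aqp7, a glycerol channel, was 6.52 higher than the mean but had 45.2 CPM in kidney against 67.2 in heart. Dsg2, a desmosomal cadherin, was called higher (1.84 ± 0.06, adjusted p = 9.84e-45) although liver, at 190.1 CPM, stood above heart, at 146.3. The cadherin Cdh2 was higher by 2.93, with liver nearest.

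Of transcription factors and coactivators, 4 of 8 tested probes were higher and 1 lower. Mef2c, which binds the MEF2 site, had 66.5 ± 9.47 CPM in heart against 20.3 in ovary (2.91 ± 0.08, adjusted p = 8.87e-49). Ppargc1a, a coactivator of mitochondrial biogenesis, was higher by 3.47, and the fatty acid receptors Ppara and Ppard by 2.27 and 1.17. Nr2f2, an orphan receptor that marks atrial identity in the mouse, was below each other tissue, with 8.43 ± 1.36 CPM in heart and means of 25.2 to 70.2 elsewhere (-2.13 ± 0.07, adjusted p = 1.24e-42).

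In the list of natriuretic peptides, stress hormones and receptors, 3 of 14 tested probes were higher and 2 lower, near the background. Nppa, the atrial natriuretic peptide, is not on the panel, and no called probe was that of a natriuretic peptide. The growth factor Vegfb ran from 335 to 424 CPM (median 399) in heart against at most 91.7 elsewhere (3.51 ± 0.04, adjusted p = 3.8e-73). Vegfa had 1008 CPM in heart and 873 in lung, and the groups overlapped. Apln, a peptide of vessels and heart, was 1.94 higher than the mean but below lung. Gdf15 was lower, by -2.30, and the angiotensin receptor Agtr1a was below each other tissue, at 0.371 ± 0.279 CPM.

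Genes of fatty acid uptake and oxidation moved widely: 22 of 26 tested probes were higher and 1 lower, with a median of 2.35, and 9 were above each other tissue. Lpl, which frees fatty acids from circulating triglyceride, ran from 5499.5 to 7995 CPM (median 6829) in heart against 290.0 on average in lung (6.48 ± 0.11, adjusted p = 1.04e-61). Cpt1b, the muscle form of the enzyme that admits fatty acids to mitochondria, ran from 909 to 1114 CPM (median 1007) and reached at most 49.5 elsewhere (7.34 ± 0.10, adjusted p = 1.69e-67). Hearts thus lay within a narrow band for Cpt1b. The beta-oxidation enzymes Ech1 and Acadl were higher by 3.11 and 3.59.

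The fatty acid transporter Cd36 was 4.19 ± 0.15, adjusted p = 9.81e-41 against the mean, but its hearts ran from 27.5 to 225 CPM (median 164) and overlapped with liver, at 22.5 to 129.05. The lowest heart was again 1,2-DCB F2. Acaa2, the last enzyme of a turn of beta-oxidation, was higher by 2.04, with 29866 CPM in heart and 21906 in liver. The lipid droplet protein Plin2 was the lower member, at -1.93.

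Of ketone body and branched-chain genes, 5 of 11 tested probes were higher and 2 lower. Oxct1, which activates ketone bodies for oxidation, had 1297 ± 152.5 CPM in heart, 495 in kidney and 2.39 in liver (5.004 ± 0.06, adjusted p = 1.24e-75). The branched-chain enzymes Bcat2 and Ivd were higher by 2.24 and 1.87, and the monocarboxylate transporter Slc16a7 was lower, at -2.57.

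In the tricarboxylic acid cycle and pyruvate oxidation, 11 of 12 tested probes were higher and 1 lower, with a median of 2.81. Got1, a transaminase of the malate-aspartate shuttle, ran from 2108 to 2876 CPM (median 2578) in heart (3.75 ± 0.05, adjusted p = 4.23e-67). Nnt, the mitochondrial transhydrogenase, had 546 ± 55.3 CPM (3.93 ± 0.04, adjusted p = 1.91e-76). Idh2, an isocitrate dehydrogenase, was 3.78 higher than the mean and closest to kidney, at 346 against 671 CPM. Pdk1, which inhibits pyruvate dehydrogenase, was 3.71 higher. Its paralog Pdk2 had 124.9 CPM in heart and 115.4 in kidney. The malic enzyme Me2 was the lower member, at -1.53.

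In the respiratory chain and its carriers, 8 of 10 tested probes were higher and 0 lower, with a median of 2.92. Cox8b, a muscle subunit of cytochrome oxidase, ran from 1042 to 2002 CPM (median 1395) in heart and reached at most 22.2 elsewhere (11.69 ± 0.32, adjusted p = 7.7e-48). Slc25a4, the carrier that exchanges ATP for ADP in heart and muscle, had 6703 ± 683 CPM against 161 in kidney (6.71 ± 0.07, adjusted p = 5.81e-79). Atp5c1, Ndufb8 and cytochrome c (Cycs) were higher by 3.19, 3.02 and 2.80. Ndufv3 and Tfam did not pass, at -0.29 and 0.58.

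Of creatine and adenylate genes, 5 of 8 tested probes were higher and 2 lower. Ckm, muscle creatine kinase, ran from 7724 to 13582 CPM (median 11503) in heart, had no count in liver and reached at most 25.7 elsewhere. Heart was at least 549000-fold higher than liver and stood 12.16 ± 0.65 on the log2 scale over ovary, its nearest tissue (adjusted p = 8.98e-25). Ckmt2, the mitochondrial form of striated muscle, had 894 ± 122.5 CPM and at most 1.61 elsewhere (14.70 ± 0.24, adjusted p = 2.32e-63). Gatm and Gamt, which make creatine, were lower, at -2.30 and -2.06: Gatm had 76.7 CPM in heart and 13474 in kidney, and Gamt 16.01 in heart and 626 in liver.

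Of glucose and glycogen genes, 16 of 31 tested probes were higher and 4 lower, with a median of 1.01. Muscle isoforms carried the largest changes. Pgam2, muscle phosphoglycerate mutase, ran from 2480.4 to 3709.9 CPM (median 2931) in heart against 24.6 on average in kidney (12.002 ± 0.29, adjusted p = 8.09e-52), whereas Pgam1, its broadly expressed paralog, did not pass (0.09 ± 0.06, adjusted p = 0.149). Pygm, muscle glycogen phosphorylase, had 715 ± 43.1 CPM (7.99 ± 0.09, adjusted p = 2.25e-75), and Pygl, the liver form, had 8.07 ± 1.96 CPM and was below each other tissue (-4.04 ± 0.07, adjusted p = 1.15e-60). Eno3, muscle enolase, had 2384 ± 628 CPM (6.81 ± 0.06, adjusted p = 8.45e-84). Ppp1r3a, which targets a phosphatase to glycogen, had 130.1 ± 8.57 CPM, no count in kidney or liver, and stood 6.19 ± 0.21 on the log2 scale over lung, its nearest tissue (adjusted p = 1.35e-26).

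Among the paralogs of muscle proteins, 21 of 38 tested probes (55.3%) were higher and 8 (21.1%) lower, against 16.9% and 26.9% of all tested probes. Fabp1 and Fabp7, lipid carriers, had 3.97 and 0.0288 CPM in heart and 67075 and 566 in liver, and Fabp2 had no count in any heart. The glucose transporter Slc2a2 had 0.0207 CPM in heart against 123.96 in liver. Hk1, a hexokinase, was 2.47 higher. Smooth muscle actin Acta2, tropomyosin Tpm2, light chain Myl9 and Pfkp did not pass, at 0.05, 0.15, 0.50 and 0.09, and had higher means in ovary than in heart. Actn1, a non-muscle actinin, was lower, at -1.26. Whether each probe separates close paralogs is not stated in the labels.

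Of stress chaperones and antioxidants, 5 of 23 tested probes (21.7%) were higher and 4 (17.4%) lower, against 16.9% and 26.9% of all tested probes. Cryab, the small heat shock protein that binds desmin and titin, had 708 ± 107.4 CPM against 39.8 in kidney (7.16 ± 0.11, adjusted p = 2.72e-65). Sod2, mitochondrial superoxide dismutase, had 1019 ± 66.8 CPM and was above each other tissue (2.03 ± 0.04, adjusted p = 3.94e-59). Hspb1 was 2.74 higher than the mean, with 541 CPM in heart and 531 in lung. Gclc, of glutathione synthesis, and the metallothionein Mt1a were lower, at -3.04 and -3.52. Of immediate early genes, 5 of 22 tested probes (22.7%) were higher and 4 (18.2%) lower, against the same 16.9% and 26.9%. Gadd45g was higher by 1.15, and Myc, Dusp6 and Fosl1 were lower, at -1.82, -1.43 and -1.76.

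Chamber genes were examined for that reason. Of ventricular genes, 8 of 9 tested probes were higher and 0 lower: Myl2, Myl3, Myh7, Hrc, Ckm, Lpl, Gja1 and Casq1 were higher, and Xdh did not pass the 2-fold limit, at -0.23. Of the atrial genes 2 were tested, 1 called higher and 1 lower. Clu was higher than the mean by 2.25, with 92.5 ± 13.4 CPM in heart and 76.6 in liver. Nr2f2 was lower, as given above. No other gene of the atrial list is on the panel, so Nppa, Myl4, Myl7 and Sln were not measured. The chamber sampled was not tested by these values.

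The lowest transcripts in heart included epithelial and liver genes. Met, the receptor of hepatocyte growth factor, ran from 0 to 3.11 CPM (median 1.11) in heart, with means of 37.7 to 212 elsewhere (-6.46 ± 0.17, adjusted p = 1.9e-48). Lsr, a lipoprotein receptor of epithelial junctions, had 4.63 ± 2.36 CPM against means of 70.4 to 218 (-4.46 ± 0.12, adjusted p = 6.67e-49). Fah, the last enzyme of tyrosine breakdown, had 9.63 ± 1.36 CPM, and the lowest library elsewhere had 25.9 (-4.87 ± 0.10, adjusted p = 1.86e-57). In all 3 genes every heart lay below every other library.

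Other genes below each other tissue had separate roles. Fasn, fatty acid synthase, had 3.89 ± 0.762 CPM in heart against means of 39.9 to 168 (-4.01 ± 0.25, adjusted p = 2.46e-25), and Sqle, of sterol synthesis, 11.4 ± 2.99 CPM against 39.3 to 277 (-3.14 ± 0.14, adjusted p = 8.67e-34). Acaca, which supplies malonyl-CoA to Fasn and was named as a paralog, was lower against the mean only (-1.34 ± 0.10, adjusted p = 1.21e-20). The haem-binding membrane protein Pgrmc1 had 10.9 ± 2.53 CPM against 72.5 to 524, and Acy3, an aminoacylase, 19.5 ± 2.19 CPM against 55.8 to 1925. The plasma proteins Apoc1 and Cp were below each other tissue in the fit, at -4.83 and -3.41, with overlapping libraries.

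Of drug-metabolizing enzymes, 2 of 39 tested probes were higher and 25 lower, with a median of -2.09, or -3.15 from the edgeR fit. Ephx1, microsomal epoxide hydrolase, ran from 2.09 to 5.82 CPM (median 4.25) in heart, with means of 21.8 to 326 elsewhere (-3.94 ± 0.13, adjusted p = 8.33e-42). Mgst1, a membrane glutathione transferase, had 7.07 ± 1.41 CPM against 39.003 to 1121 (-3.79 ± 0.09, adjusted p = 8.24e-51). Cyp2f4 and Cyp2b2 had 0.0507 and 0.137 CPM in heart and 138.9 and 421 in lung. Sult1b1, Gsta2 and Cyp4a1 had 0.0258, 0.335 and 0.0490 CPM in heart and 877, 568.1 and 172 in liver. Cyp1b1 and Ephx2 were the higher members, by 2.08 and 2.01.

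Of cell cycle genes, 3 of 57 tested probes were higher and 16 lower, with a median of -0.63. The lower share, 28.1%, was near the 26.9% of all tested probes. Aurka, Ccnb2, Cenpf, Cks2 and Plk4, which act in mitosis or centriole copying, had 1.88, 4.27, 2.43, 3.91 and 3.9996 CPM in heart. In ovary, the highest tissue for each, they had 21.7, 37.9, 22.2, 34.2 and 31.4 CPM.

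**Figure D3:**
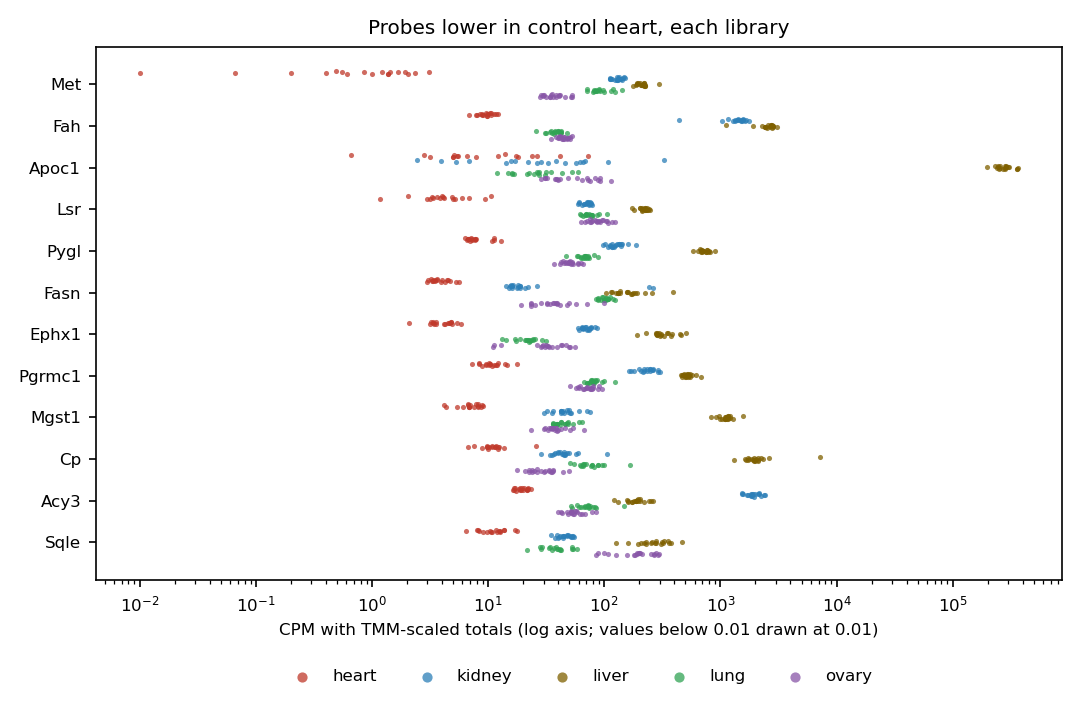
CPM in each library (horizontal, log axis) of the 12 genes with the largest fall among probes below each other tissue and at 20 CPM or more in each of them, by tissue. Hearts lie to the left of all other libraries for 10 of the genes, and overlap with them for Apoc1 and Cp.

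**Figure D4:**
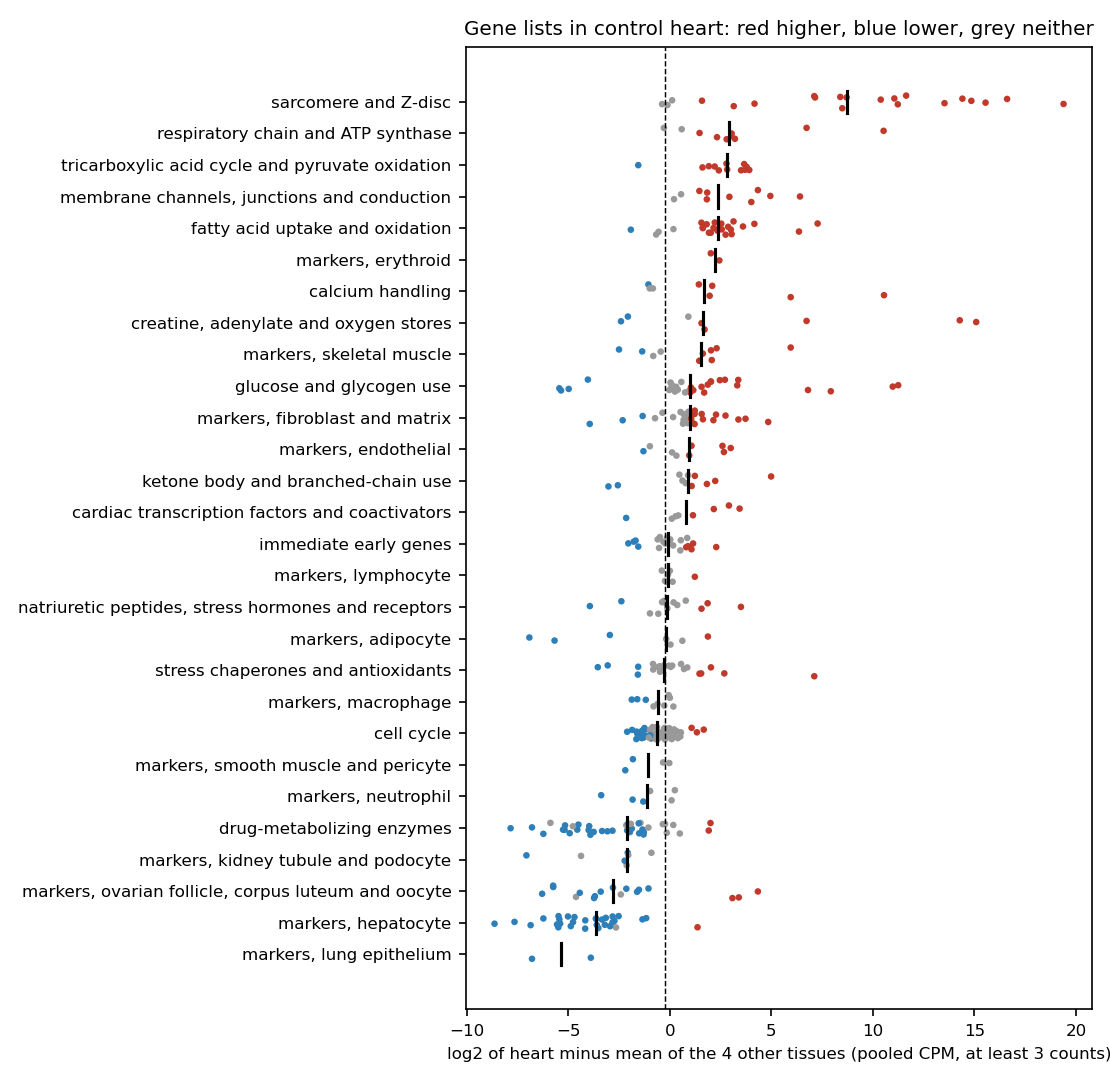
Change of each tested member of the gene lists, with each list's median. Values are log2 of heart minus the mean of the other tissues, from pooled CPM with at least 3 counts. The dashed line at -0.23 is the median of all tested probes from the edgeR fit. Sarcomere genes reach farthest right, and hepatocyte and ovarian markers lie mostly to the left.

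Markers of other cells were measured beside these lists. Of endothelial markers, 5 of 9 tested probes were higher and 1 lower, and they summed to 1084 to 1428 CPM in hearts against 3744 to 5469 in lung and 176 to 232 in liver. Of fibroblast and matrix genes, 14 of 28 tested probes were higher and 3 lower, with sums of 3810.0 to 5049 in heart and 3310.0 to 6264 in ovary. Both erythroid probes were higher than the mean, but neither was more than 2-fold above each other tissue. Their sum ran from 1355 to 10850.0 CPM among hearts (median 3595) and from 3044 to 8615 in lung (median 4042). Of macrophage markers, 0 of 9 tested probes were higher and 3 lower, at 309 to 598 CPM in heart and 31320.0 to 51030.0 in lung. Lyz2, a lysozyme that lung also makes in its epithelium, gave nearly all of the lung sum: the other 8 probes summed to 119.2 to 184 CPM in heart, 239 to 342 in lung and 385 to 619.8 in liver. Smooth muscle markers summed to 38.3 to 83.1, adipocyte markers to 21.3 to 34.4, neutrophil markers to 22.3 to 99.7 and lymphocyte markers to 15.8 to 41.5 CPM in hearts. The part of these cells in the results was not tested.

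Markers of the other organs were low. The 2 lung epithelial markers summed to at most 0.496 CPM in any heart. Of 7 kidney markers, 6 had a median below 1 CPM and Slc34a3 was at 0 in every heart. Of ovarian markers, 3 of 17 tested probes were higher than the mean and 12 lower, and the higher members were Gja1, Cyp11a1 and Inha. Ovary stood far above heart for Cyp11a1 and Inha, with medians of 3641 and 299.6 CPM against 22.64 and 12.17. Gja1 had medians of 78.88 CPM in heart and 25.33 in ovary. Of skeletal muscle markers, 6 of 10 tested probes were higher and 2 lower. Their sum of 159.5 to 447 CPM in hearts was mainly Casq1. Casq1, counted above among the ventricular genes too, ran from 139.5 to 431.3 CPM in hearts and from 16.33 to 79.44 in kidney. Whether skeletal muscle contributed to these levels was not tested. The fast myosins Myh1, Myh2 and Myh4 and parvalbumin (Pvalb) reached at most 0.269, 1.08, 0.390 and 0.246 CPM in any heart. Myh4 was counted as higher although its median in heart was 0, with no count in kidney, liver or lung and a median of 1.671 CPM in ovary. The troponins Tnnt3, Tnnt1 and Tnni1 were also called higher, with medians of 5.91, 4.93 and 4.58 CPM in heart. Tnnt3, of fast muscle, was above each other tissue. Liver stood above heart for Tnnt1, with a median of 10.37 CPM, and ovary for Tnni1, with a median of 9.949.

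Of hepatocyte markers, 1 of 31 tested probes were higher and 29 lower, and 21 had a median below 1 CPM in heart. The higher one was Ttr, which ran from 381.1 to 796.6 CPM in hearts. Its medians were 499.0 CPM in heart, 61.47 in kidney, 5.217 in lung and 3.413 in ovary, but 373400 in liver. Every heart also held Tf, at 686.7 to 1014 CPM, against medians of 708.7 in kidney, 1233 in lung, 1349 in ovary and 1389000 in liver. Other liver transcripts were present in some hearts only at higher levels, such as albumin. Albumin, as CPM of the unscaled total, was 260.3 in 1,4-DCB heart F10 and 144.3 in F2, F8 was next, and it was at most 77.5 in the other 15 hearts, against 843 and 800.0 in the left-out F1 and F7. Without F2, F8 and F10, 410 probes were higher and 661 lower, and 6.07% of tested probes were above and 5.21% below each other tissue.

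The spread among hearts was about the same for the heart-high probes as over all probes at 20 CPM or more, which include them. Over the 864 probes that averaged 20 CPM or more in heart, the median SD of log2 CPM among hearts was 0.172, and among those above each other tissue it was 0.175. The widest spreads were in liver transcripts and a few others. Fga, a fibrinogen chain, ran from 0 to 174 CPM (median 4.81), and Alb from 0.661 to 231 CPM (median 5.93). Fgg and Apoa1 ran from 4.39 to 66.2 CPM (median 35.5) and 6.58 to 136.2 CPM (median 17.04). Fgg was highest in 1,2-DCB heart F1, where Alb was 0.909 CPM, and was 52.2 in 1,4-DCB heart F10, the highest in Alb. Lung also held Fgg, with a median of 1305 CPM. Pf4, a platelet chemokine, was 143.6 to 288 CPM in 16 hearts but 1503 in 1,2-DCB heart F3 and 2024 in 1,4-DCB heart F4. The same 2 hearts had the highest sums of erythroid markers (7089 and 10850.0 CPM, against at most 5778 in the others), neutrophil markers (99.7 and 70.8 CPM, against at most 40.9 in the others) and lymphocyte markers (38.1 and 41.5 CPM, against at most 27.4 in the others). The part of blood cells in the Pf4 level was not tested. Fos, an immediate early gene, ran from 4.69 to 162 CPM (median 21.4), with 1,2-DCB heart F2 highest.

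A further group of probes varied with the rat. Cltc, the clathrin heavy chain, separated the hearts of 1,2-DCB rats F5 and F8 and 1,4-DCB rats F2 and F9 from the other 14 (10.7 to 15.8 against 57.02 to 136.2 CPM). The same 4 rats were the lowest in kidney (21.1 to 25.9 against 146.7 to 298 CPM), liver (9.71 to 19.3 against 72.9 to 166 CPM) and ovary (9.78 to 12.3 against 69.2 to 150.8 CPM), and the 3 of them with a lung library were lowest in lung.

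LOC688090, for which the sources used here give no function, separated other rats: 1,2-DCB F3 and 1,4-DCB F2, F5 and F8 were low in heart (2.24 to 3.81 against 37.9 to 109.6 CPM), in kidney (9.44 to 14.6 against 99.2 to 317 CPM), in liver (3.60 to 6.37 against 65.7 to 198 CPM) and in ovary (3.08 to 5.32 against 72.7 to 188 CPM). Pno1, a factor of small ribosomal subunit assembly, was low in 8 hearts (18.7 to 24.8 against 50.4 to 88.7 CPM), and the same 8 rats were lowest in kidney (at most 30.3 against at least 60.1 CPM), liver and ovary. These ranges cover the rats whose hearts were used. Between tissues, Pno1 and Cltc did not pass the 2-fold limit, at 0.02 and -0.47. The rats were split at the widest gap among hearts after the values were seen, and no test was made.

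**Figure D5:**
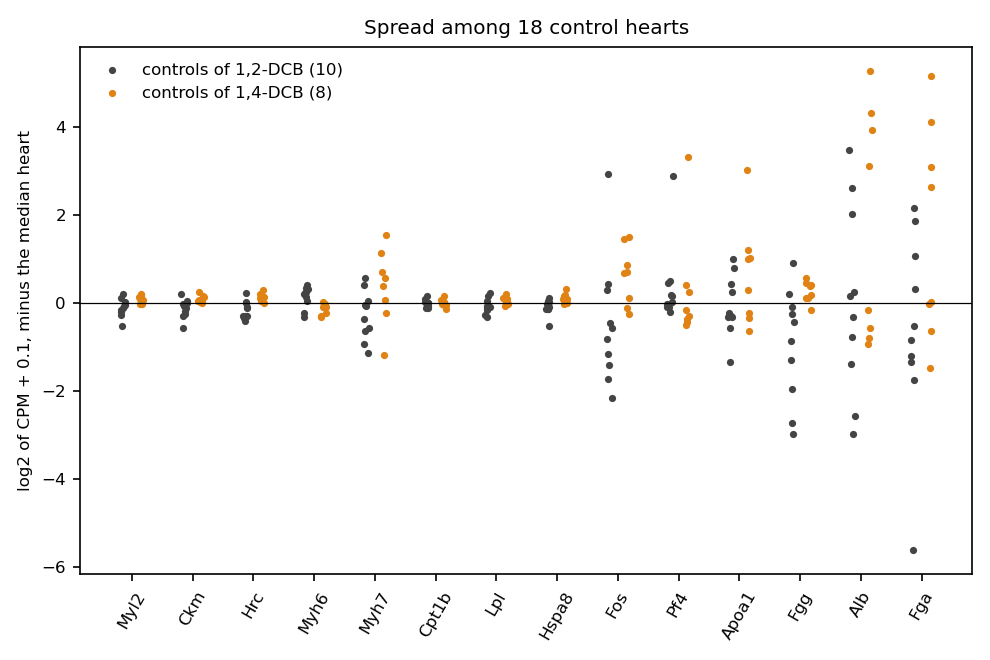
Level of 14 genes in each of 18 control hearts (log2 of CPM as a difference from the median heart, with a small constant added to CPM), by compound. Sarcomere and fuel genes lie close to the median, with Myh7 wider, while Fos, Pf4 and liver transcripts such as Fga and Alb spread over several log2 units.

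The contrast of heart with the other tissues was compared between the control rats of each compound. By edgeR, 1 of 2446 probes (0.0409%) differed at an adjusted p below 0.05: Cfi, complement factor I, a gene of liver. It had 0.0522 ± 0.0831 CPM in hearts of 1,2-DCB controls (n = 10) and 0.822 ± 0.911 in those of 1,4-DCB controls (n = 8), a difference of 3.70 ± 0.77 in the contrast (adjusted p = 0.0202 by edgeR). It was lost without any 1 of 8 rats, named with the other settings. Among the 150 probes above each other tissue, 73 had the higher heart mean in 1,2-DCB controls, and their differences ran from -1.56 to 1.64 with a median of -0.01.

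The heart-high transcripts were also followed at the highest concentration, with hearts scaled on their own and the same control hearts. At 500 ppm of 1,2-DCB, 5.16% of 2092 probes were higher and 6.79% lower than in controls at an adjusted p below 0.05, and at 800 ppm of 1,4-DCB 2.64% of 2046 were higher and 3.03% lower. Of the 150 probes above each other tissue, 19 were higher and 10 lower with 1,2-DCB, and 11 higher and 4 lower with 1,4-DCB. Their median changes were 0.03 and 0.09.

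Tcap went up with both compounds, from 96.6 ± 25.4 to 174 ± 37.2 CPM with 1,2-DCB (n = 10 and 5; 0.85 ± 0.17, adjusted p = 0.000512 by edgeR) and from 64.8 ± 18.1 to 135.7 ± 13.7 CPM with 1,4-DCB (n = 8 and 5; 1.07 ± 0.18, adjusted p = 0.000175 by edgeR). Nrap rose with 1,2-DCB, from 174 ± 25.9 to 315 ± 64.9 CPM (0.86 ± 0.13, adjusted p = 5.99e-06 by edgeR), and had 0.29 ± 0.10, adjusted p = 0.0865 with 1,4-DCB. With 1,2-DCB, Myoz2, Mef2c, Slc25a4 and Ppp1r3a rose by 0.44, 0.47, 0.34 and 0.28, and Actc1 fell (-0.52 ± 0.15, adjusted p = 0.0188 by edgeR). With 1,4-DCB, Acadl, Srl, Slc25a4 and Ppp1r3a rose by 0.34, 0.30, 0.22 and 0.20. Myl2 did not pass with either, at -0.00 ± 0.19, adjusted p = 0.993 and 0.07 ± 0.06, adjusted p = 0.59. Of the genes lowest in heart, Ephx1 rose with both, by 1.64 and 1.46. Whether the compounds differ in these changes was not tested.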

How the data were processed

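The authors deposited raw read counts per probe, with counts of attenuated (deliberately diluted) probes scaled back up, as the deposited table is named. Reads were mapped with Bowtie 1.3.1, per the submitters' processing notes, with settings that are not stated. In the counts, 115 of 2654 probes came in steps above 1, up to 10, and a floor of 3 counts was taken as 3 steps.

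Control libraries were fitted with edgeR 4.0.16 (R 4.3.3): TMM scaling, filterByExpr by tissue, the robust quasi-likelihood test, and tissue plus rat as terms. The rat block follows the labels, which give the tissues of 1 rat the same number. Median correlations of same-rat deviations were 0.0653 for heart and kidney, 0.0633 for liver, 0.144 for lung and 0.0614 for ovary. Exposed hearts were fitted apart, by group. The fit was tested on simulated data. Alternatives included limma 3.58.1 and DESeq2 1.42.0.

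Genes were named by rule: the 20 largest rises, the 12 largest falls, up to 5 called members of each list, the paralogs and chamber genes at 20 CPM or more, the 10 most variable among hearts and the 5 most abundant. Single genes outside this rule, such as list members that did not pass, were added after their values were seen. A few genes that the rule names are not reported here. The comparison and the lists were chosen with earlier results of these data known. Counts are of amplified reads without molecular identifiers, so floors cover counting error only.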

Additional observations from a re-analysis of the deposited data

Results flagged for a closer look

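Myl3 was 1041 CPM in the 1,2-DCB control heart F2, far below the other 9 hearts of its group. Pgam2 was 3710 CPM in the 1,4-DCB control heart F5, far above the other 7 hearts of its group. These were 2 of 40 groups of heart values examined, and chance flags about 1 in 20 groups. The contrast of heart with the other tissues differed between the control rats of the compounds for Cfi, by 3.70 on the log2 scale, at levels below 1 CPM on average in both groups of hearts.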

How the results depend on the processing

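Main counts stayed within 1.5 times the reported ones under other scaling, other tools, other control libraries, each tissue left out and no filter on low counts, but not under a filter of 20 CPM, which leaves 1253 probes (210 higher, 344 lower, 86 above and 71 below each other tissue), or without a fold threshold (843, 1150, 339 and 328). Without each rat in turn 16.6% to 17% of tested probes were higher, 26.5% to 27.6% lower, 6% to 6.32% above and 4.82% to 5.15% below each tissue. Without the replicate block 16.6% were higher, 26.8% lower, 6.13% above and 4.99% below each tissue, and of the probes called with the block 97.8%, 98.3%, 99.3% and 95.9% were called again. Other settings called fewer of the same probes again: with library totals only, 83.9% of the lower, 74.7% of the above-each and 56.6% of the below-each probes. Of the below-each probes, 75.4% were called in rats given 1 or 10 ppm, 77% in 1,4-DCB controls only, 86.9% in 1,2-DCB controls only and 70.5% in a test against a 2-fold change. Without liver in the mean, 82.6% of the higher and 79.3% of the lower probes were called again.

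The count of probes that differed between the compounds' controls was 5 with library totals only, 2 at 20 CPM, 20 with hearts F1 and F7, 5 by limma voom, 8 by DESeq2 and 0 without 1,4-DCB hearts F2, F8 and F10, chosen after seeing the data (5.66% of tested probes at an unadjusted p below 0.05). Without single rats it was 0 to 2: 0 by edgeR without 1,2-DCB F3, F4, F6, F8 or F10 or 1,4-DCB F2, F8 or F10, with 160 to 188 probes at an unadjusted p below 0.05, and 2 without 1,4-DCB F1 or F5. The cause was not tested.

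Of 2212 values of named genes under 19 settings, 2144 kept direction and an adjusted p on the same side of 0.05. Another 15 lost an adjusted p below 0.05, 24 gained it and 29 changed sign. The 2-fold limit was not part of this count. Rpl35 went to 0.0128 with DESeq2 or its size factors, 0.28 with totals only, 0.0454 with counts divided by the step, 0.0246 in 1,4-DCB controls, 0.0570 and 0.0518 without lung or ovary, and 0.0588 with scaling without attenuated probes. Pno1 went to -0.0411 at 20 CPM, -0.0377 without the block, -0.0375 in 1,2-DCB controls, -0.0107 in rats given 1 or 10 ppm, -0.00333 and -0.16 without liver or lung, and -0.0139 without F2, F8 and F10. Hspa8 went to -0.0417 at 20 CPM, -0.11 in 1,2-DCB controls, and -0.000643 and -0.0824 without liver or ovary. Acta2 went to -0.0158 at 20 CPM, -0.00908 with F1 and F7, and -0.32 and -0.80 without kidney or liver. Xdh went to 0.0756 with totals only and 0.0813 without liver. Without liver, Alb was 0.30, Pfkp -0.67 and Tpm2 -0.74, and without lung Pgam1 was -0.38. Depth limits probes near 1 count per library, such as Cfi in heart.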
